A study of Homo sapiens with 6 samples.

Results

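The genes described here encode the enzymes that build glycerolipids from glycerol-3-phosphate and fatty acids. They were taken as the rows of the count table whose identifiers belong to 10 named genes, of 63677 in all: the glycerol-3-phosphate acyltransferases *GPAM*, *GPAT3* (older symbol *AGPAT9*) and *GPAT4* (*AGPAT6*), the lysophosphatidate acyltransferases *AGPAT1*, *AGPAT2*, *AGPAT3* and *AGPAT5*, the lipins *LPIN1* and *LPIN2*, and *DGAT1*. RNA was sequenced from LoVo, an established human colorectal cancer cell line, 48 h after transfection with siRNA at a final concentration of 25 nM. One group of 3 libraries received a negative control siRNA (scramble), and the other group of 3 received a mixture of both siRNAs against the long noncoding RNA *SNHG15*. Both groups carried the same Lipofectamine 2000 treatment, and the knockdown was transient and in 1 cell line, so the effects of either siRNA alone cannot be told apart, and in bulk RNA neither can fewer cells of a kind and less RNA per cell. The p-values measure the spread between these 3 libraries per group.

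In the pathway, a glycerol-3-phosphate acyltransferase adds the first fatty acid and makes lysophosphatidate, and a lysophosphatidate acyltransferase adds the next and makes phosphatidate. Phosphatidate is a branch point. Lipins remove its phosphate and give diacylglycerol, the precursor of phosphatidylcholine, phosphatidylethanolamine and, after a last acylation by a DGAT enzyme, triglyceride, whereas the CDP-diacylglycerol branch leads to phosphatidylinositol and cardiolipin. Each step is served by several paralogs that differ in tissue and in place in the cell, so the comparison of both groups addresses which paralog supplies each step and whether that balance differed after *SNHG15* knockdown. The 10 genes were chosen by their place in the pathway together with measured fold changes of this same comparison, so their differences between groups are a description, and the adjusted p-values of the fit across all genes are no independent evidence.

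Of the 10 genes, 9 passed the filter on low counts. *GPAT3* and *LPIN2* were lower with the *SNHG15* siRNAs at an adjusted p under 0.05 in edgeR's quasi-likelihood test over all 12507 genes tested, and 0 were higher. Among all genes tested, 2.23% were called lower, 3.13% higher and 5.36% either way. At an unadjusted p under 0.05 edgeR also gave 2 lower and 0 higher of the 9, where 10.5% of all genes tested were lower, 12% higher and 22.5% either way. DESeq2 called 2 lower and 0 higher after adjustment, where over all genes it called 386 lower and 388 higher. It gave *AGPAT1* no adjusted p, so that gene could not be called. At an unadjusted p under 0.05 DESeq2 gave 2 lower and 2 higher of the 10, with *AGPAT1* and *AGPAT2* higher. The shares of all genes in DESeq2 were not worked out, so its counts have no background share beside them and are not read as particular to the 10 genes. The siRNA libraries lay below the scramble libraries without overlap in the same 2 of the 9 genes and above them in 0, where 14.1% of all genes tested lay below, 14.7% above and 28.8% either way. *GPAT3* went to 31.0% and *LPIN2* to 56.4% of the scramble level, while their paralogs *GPAT4* and *LPIN1* stood at 91.5% and 102.3% and did not pass the test.

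Both genes that fell hold, in the 3′ UTR of their canonical transcript, a match to the seed (positions 2 to 8 of the guide strand) of an *SNHG15* siRNA, and these sites are shown because they are where the transfected RNAs could pair with the mRNA. The seed of siRNA #1, UGAACAU, pairs with ATGTTCA in the mRNA, and the seed of siRNA #2, UGCUGUG, pairs with CACAGCA. The sites, read on the strand of the mRNA with the seed match in capitals, lie on GRCh37 at chr4:84526899-84526905 in *GPAT3*, and at chr18:2920243-2920249, chr18:2917195-2917201 and chr18:2917035-2917041 in *LPIN2*. Those of *GPAM*, which was not lower, lie at chr10:113910542-113910548 and chr10:113913120-113913126.
*GPAT3*, siRNA #2: ccccaactcaCACAGCAtaagcaatgt
*LPIN2*, siRNA #2: tccccctcccCACAGCAagggaaggca
*LPIN2*, siRNA #1, first site: tttaataattATGTTCAgcctatgatg
*LPIN2*, siRNA #1, second site: gcagtgtttgATGTTCAaaacaaaatg
*GPAM*, siRNA #1: gctctgtgagATGTTCAtcagtgtttt
*GPAM*, siRNA #2: tctgcatcaaCACAGCAgcctgcagat

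A seed match was not particular to the genes that fell. Of the 10 genes, 6 had a match to at least one seed, against 28.3% of 10514 protein-coding genes tested with a 3′ UTR. *GPAT4* and *DGAT1* each held 1 match for siRNA #2, and *AGPAT5* held 2 for siRNA #1, and none of these 3 genes passed the test. *AGPAT1*, *AGPAT2*, *AGPAT3* and *LPIN1* held none. The 3′ UTRs of the 10 genes ran from 612 bp in *AGPAT2* to 5203 bp in *AGPAT3*, against a median of 1340 bp for all genes, and the share of matches was not adjusted for length. The part of these sites in the falls was not tested.

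Depth and cell identity bear on every value below. Library totals lay between 3446922 counts in scramble replicate 3 and 10256710 in scramble replicate 2, and levels are given as CPM, counts per 1000000 after TMM scaling of the library sizes. *SNHG15* itself fell from 276 ± 14.3 to 82.5 ± 5.0 CPM (SD, n = 3 each). Of 8 colorectal epithelial markers, 4 passed the count filter, among them *CDX2* at 27.9 ± 1.37 CPM and *KRT8* at 46.5 ± 4.40 CPM in the scramble libraries (SD, n = 3). *KRT20* and *VIL1* had 0 counts in all 6 libraries, *EPCAM* and *CEACAM5* had at most 1 count in any library, and the summed level of the 8 genes was 102 to 110 CPM in the scramble and 106 to 117 CPM in the siRNA libraries. *EPCAM* and *CEACAM5* are genes that LoVo is known to express, so counts this low are unusual for the labelled line, and the cause was not tested. Some genes used by most cells were also at or near 0, such as *BSCL2* with 0 counts in every library and *CEPT1* with 0 to 8. The epithelial cadherin gene *CDH1* had 6.45, 8.55 and 7.56 CPM in the scramble and 3.05, 5.18 and 5.05 CPM in the siRNA libraries, without overlap, but did not pass (log2 fold change -0.76, SE 0.25, edgeR adjusted p = 0.0945). *CDH1* was thus lower, as *GPAT3* and *LPIN2* were, but the other tested markers did not follow it. *KRT8*, *KRT18* and *CDX2* had log2 fold changes of 0.26, -0.007 and -0.10, with overlapping groups, and did not pass. The part of *CDH1* in the falls of *GPAT3* and *LPIN2* was not tested. Markers of fibroblasts, leukocytes and adipocytes together reached 0.234 to 0.605 CPM in the scramble and 0.575 to 1.39 CPM in the siRNA libraries, with 3 of the 7 measured, *DCN*, *ADIPOQ* and *FABP4*, at 0 counts.

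*GPAT3* (ENSG00000138678, chromosome 4, 84457067 to 84527028, plus strand), an acyltransferase of the endoplasmic reticulum known for its part in triglyceride synthesis, was counted 207, 206 and 57 times in the control libraries and 37, 44 and 67 times after knockdown. As CPM these counts became 24.3, 20.5 and 17.2 CPM against 5.13, 6.33 and 7.87 CPM. The highest knockdown library had less than the lowest control library, with a wide gap between them. Group means were 20.7 ± 3.51 and 6.44 ± 1.37 CPM (SD, n = 3 each). On the log2 scale *GPAT3* fell by 1.69 (SE 0.20, edgeR adjusted p = 0.0017). Leaving out any 1 of the 6 libraries kept it past the threshold, with log2 fold changes from -1.87 to -1.56. Its level is low, so counting error is a larger part of its spread than for the abundant paralogs.

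*GPAT4* (ENSG00000158669, chromosome 8, 41434706 to 41482520, plus strand), the close relative of *GPAT3* in the endoplasmic reticulum, was the most abundant gene of this step. It had 149.8, 137.6 and 134.0 CPM in the scramble and 139.1, 128.0 and 119.0 CPM in the siRNA libraries. The groups overlapped, and the log2 fold change was -0.13 (SE 0.12, edgeR adjusted p = 0.568). *GPAM* (ENSG00000119927, chromosome 10, 113909623 to 113975135, minus strand), the enzyme of the mitochondrial outer membrane, had 10.9, 8.75 and 8.17 CPM against 11.2, 10.1 and 15.7 CPM. Its siRNA replicate 3 stood above the other libraries, and the log2 fold change of 0.40 (SE 0.21, edgeR adjusted p = 0.285) did not pass. Without that library the log2 fold change was 0.18.

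**Figure D1:**
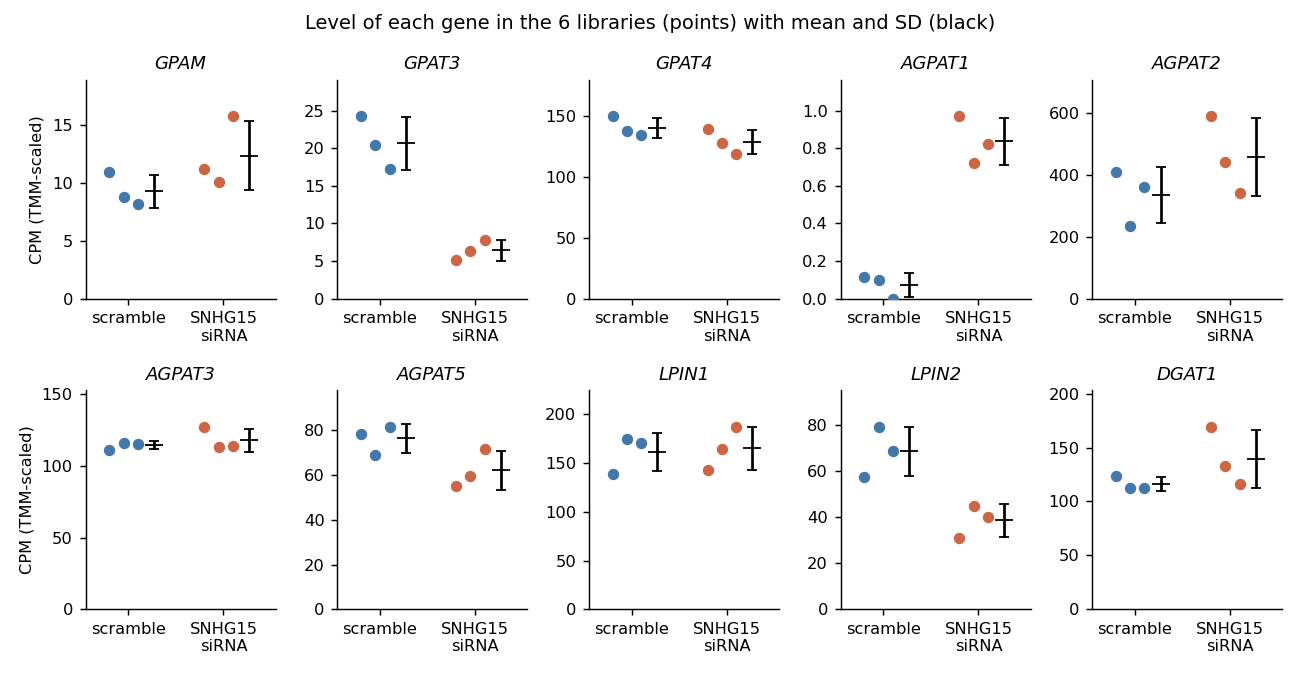
Level of each of the 10 genes in CPM (vertical axes, linear from 0, a scale of its own for each gene) in the 3 scramble libraries (blue points) and the 3 *SNHG15* siRNA libraries (orange points), replicates 1 to 3 from left to right, with mean and SD in black. The groups are apart in *GPAT3*, *LPIN2* and, at under 1 CPM, *AGPAT1*, and overlap in the other genes.

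Per kb of annotated exon, which allows the levels of different genes to be compared, *GPAT3* made up 25.1%, 23.7% and 21.2% of the summed level of the 3 glycerol-3-phosphate acyltransferases under scramble siRNA, against 7.05%, 9.24% and 11.6% in the siRNA libraries. *GPAT4* took 72.8% ± 2.20 of the sum in the scramble and 84.2% ± 3.83 in the siRNA libraries (SD, n = 3 each), and *GPAM* 3.87% ± 0.257 and 6.56% ± 1.73. The ratio of *GPAT4* to *GPAT3*, on the same scale, was 2.82, 3.06 and 3.55 against 12.4, 9.23 and 6.90. The summed level itself was 26.7, 23.9 and 22.5 CPM per kb in the scramble and 20.1, 18.9 and 18.8 CPM per kb in the siRNA libraries. It was thus lower in every siRNA library, a difference that is mostly that of *GPAT3*, whose mean went from 5.70 to 1.78 CPM per kb. The remaining paralog, *GPAT2*, had 0 counts in all 6 libraries, and a limit of 3 counts corresponds to 0.298 to 0.907 CPM in single libraries.

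The lysophosphatidate acyltransferases were led by *AGPAT2* (ENSG00000169692, chromosome 9, 139567595 to 139581909, minus strand), which is needed for fat storage in adipose tissue. It held 89.1% ± 2.57 of the summed level per kb of the 4 genes in the scramble and 92.3% ± 2.24 in the siRNA libraries (SD, n = 3 each). Its libraries varied widely, with 409.9, 235.2 and 361.7 CPM in the scramble and 590.4, 442.6 and 341.1 CPM in the siRNA group. Scramble replicate 2 was lowest and siRNA replicate 1 highest, and the groups overlapped (log2 fold change 0.45, SE 0.21, edgeR adjusted p = 0.232). Leaving out 1 library gave values from 0.22, without siRNA replicate 1, to 0.63, without siRNA replicate 3, and 0.25 without scramble replicate 2. It passed only in the fit without a filter on low counts, with a log2 fold change of 0.42 and an adjusted p of 0.0377.

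*AGPAT3* (ENSG00000160216, chromosome 21, 45285104 to 45407473, plus strand) had the smallest spread of the 10 genes relative to its mean in the scramble libraries, with 111.0, 116.0 and 115.5 CPM in the scramble and 127.1, 112.8 and 113.5 CPM in the siRNA libraries. Its log2 fold change was 0.05 (SE 0.12, edgeR adjusted p = 0.852). *AGPAT5* (ENSG00000155189, chromosome 8, 6566163 to 6619024, plus strand), an enzyme found at mitochondria, had 78.3, 69.0 and 81.4 CPM against 55.2, 59.3 and 71.7 CPM. Only siRNA replicate 3 reached into the range of the scramble libraries, and the log2 fold change of -0.29 (SE 0.14, edgeR adjusted p = 0.234) did not pass. *AGPAT4*, the paralog outside the 10 genes, had 4.57 ± 0.346 CPM in the scramble and 6.30 ± 0.182 CPM in the siRNA libraries (SD, n = 3 each). Its groups did not overlap, but its adjusted p was 0.21 from edgeR.

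*AGPAT1* (ENSG00000204310, chromosome 6, 32135989 to 32145873, minus strand), a broadly expressed enzyme of the endoplasmic reticulum encoded in the major histocompatibility complex, did not pass the filter. It had 1, 1 and 0 counts in the scramble and 7, 5 and 7 in the siRNA libraries, so the groups did not overlap, but the scramble libraries were all under the floor of 3 counts. Over each group this is 2 against 19 counts, a ratio of 9.17 after scaling (95% exact binomial interval 2.21 to 81.2, counting error only). Low counts were common in its neighbourhood. Of the 20 nearest protein-coding genes on chromosome 6, between 31973945 and 32557625, 7 passed the filter (35%), against 54.2% of the 988 protein-coding genes of the chromosome, and their median total over 6 libraries was 10.5 counts against 139. On the other strand, exons of *AGPAT1* overlap *PPT2-EGFL8* by 1087 bp and *EGFL8* by 70 bp. *EGFL8* had 2, 0 and 0 counts in the scramble and 5, 6 and 8 counts in the siRNA libraries, without overlap. *PPT2-EGFL8*, with the longer overlap, had 2, 3 and 3 against 3, 1 and 6 counts, which overlapped. The part of shared reads was not tested. How the counting treated reads with several placements, or reads shared by overlapping genes, was not given in the sources used here, so the count of *AGPAT1* is uncertain, and its share of the step, 0.0106% in the scramble libraries, may not be that of its mRNA.

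*LPIN2* (ENSG00000101577, chromosome 18, 2885294 to 3013142, minus strand), a phosphatidate phosphatase that also acts as a coregulator of transcription, was counted 490, 794 and 227 times in the control libraries and 223, 311 and 341 times after knockdown. As CPM these counts became 57.4, 79.0 and 68.6 CPM against 30.9, 44.7 and 40.1 CPM. The lowest scramble library lay above the highest siRNA library. Group means were 68.4 ± 10.8 and 38.6 ± 7.03 CPM (SD, n = 3 each). On the log2 scale *LPIN2* fell by 0.83 (SE 0.17, edgeR adjusted p = 0.0151). The call depended on single control libraries. It was lost without scramble replicate 2 (log2 fold change -0.69, adjusted p = 0.0979) and without scramble replicate 3 (-0.83, adjusted p = 0.0544), and it held in the other 4 of these fits.

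*LPIN1* (ENSG00000134324, chromosome 2, 11817721 to 11967535, plus strand), its paralog with the same activity, had 139.1, 175.0 and 170.9 CPM in the scramble and 143.3, 164.8 and 187.1 CPM in the siRNA libraries. The ranges lay almost on top of each other, and the log2 fold change was 0.03 (SE 0.14, edgeR adjusted p = 0.917). *LPIN2* therefore made up 39.9%, 42.1% and 39.2% of the level per kb of both lipins under scramble siRNA, against 25.8%, 30.4% and 25.6% in the siRNA libraries. The ratio of *LPIN1* to *LPIN2* per kb went from 1.48 ± 0.0887 to 2.69 ± 0.348 (SD, n = 3 each), with no overlap, and the summed level of both lipins was 19.5, 25.5 and 23.7 CPM per kb against 16.3, 19.96 and 21.2 CPM per kb, which overlapped. The third lipin, *LPIN3*, had between 2 and 8 counts in any library. Both noncoding genes whose exons overlap those of *LPIN2* on the other strand had at most 1 count in any library.

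**Figure D2:**
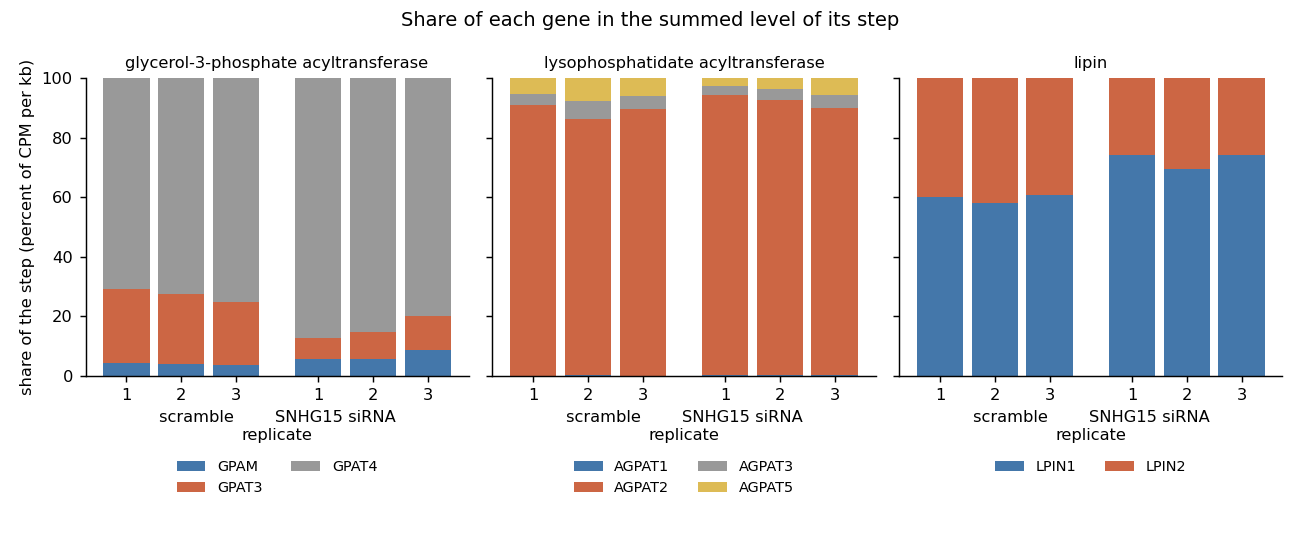
Stacked bars give the share of each gene in the summed level of its step (vertical axis, percent of CPM per kb of annotated exon) in each of the 6 libraries, for glycerol-3-phosphate acyltransferases, lysophosphatidate acyltransferases and lipins. The *GPAT3* share lies between 21.2% and 25.1% in the scramble and between 7.05% and 11.6% in the siRNA libraries, and the *LPIN2* share is below that of the scramble in each siRNA library, while *AGPAT2* fills at least 86.2% of its step throughout.

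*DGAT1* (ENSG00000185000, chromosome 8, 145538247 to 145550573, minus strand), which makes triglyceride from diacylglycerol and is known for fat absorption in the intestine, had 123.4, 112.9 and 112.2 CPM in the scramble and 169.1, 133.2 and 116.4 CPM in the siRNA libraries. Replicate 1 of the siRNA group was highest, and replicate 3 lay inside the scramble range. The log2 fold change was 0.26 (SE 0.14, edgeR adjusted p = 0.299), and 0.0986 without siRNA replicate 1. Its exons overlap those of *HSF1* on the other strand by 137 bp, and *HSF1* had 198 to 803 counts per library, and the part of shared reads was not tested. The unrelated enzyme for the same reaction, *DGAT2*, was lower in level, with 13.4 ± 1.40 CPM in the scramble and 17.4 ± 1.73 CPM in the siRNA libraries (SD, n = 3 each; log2 fold change 0.35, adjusted p = 0.222 from edgeR).

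**Figure D3:**
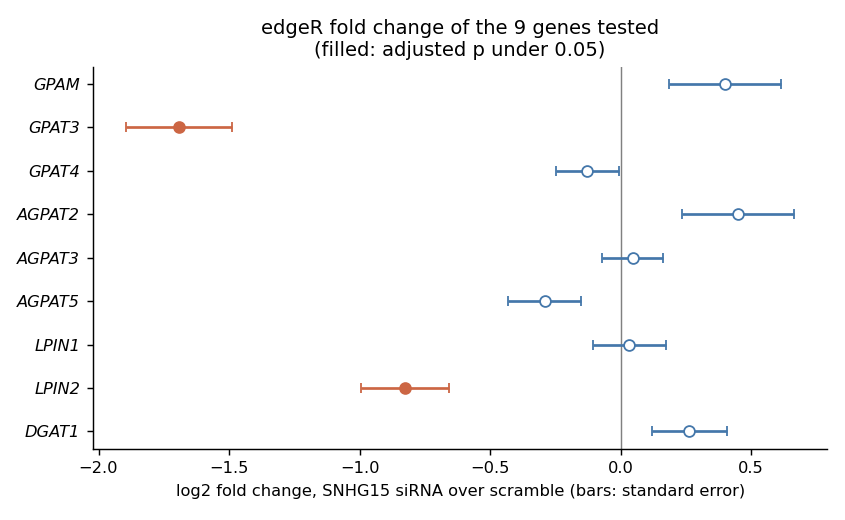
Log2 fold change of the 9 genes tested, *SNHG15* siRNA over scramble (horizontal axis), with the standard error from edgeR as bars. *GPAT3* at -1.69 and *LPIN2* at -0.83 pass an adjusted p of 0.05 (filled points), and the other 7 genes lie between -0.29 and 0.45 without passing (open points).

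In the scramble libraries, which are also part of the comparison that the genes were chosen on, the level per kb of exon ran from 183 ± 49.2 CPM per kb for *AGPAT2* down to 0.0201 ± 0.0176 for *AGPAT1* (SD, n = 3). *DGAT1* followed *AGPAT2* with 28.1 ± 1.52, then *GPAT4* with 17.7 ± 1.04, *LPIN1* with 13.6 ± 1.66 and *AGPAT5* with 12.2 ± 1.03 CPM per kb. *AGPAT3* and *LPIN2* both stood at 9.27, *GPAT3* at 5.70 ± 0.970 and *GPAM* at 0.945 ± 0.147. The ranges of *LPIN1* and *AGPAT5* overlapped, as did those of *AGPAT3* and *LPIN2*, so neither pair differed beyond the spread of the libraries. The ranges of all other neighbours in this order were apart, but the order depends on the length used. Per kb of the canonical transcript, a check added after seeing the data, *LPIN1* (29.7 ± 3.61) stood above *GPAT4* (22.3 ± 1.31) and overlapped *DGAT1* (31.8 ± 1.72), and *AGPAT3* (17.4 ± 0.42) stood above *AGPAT5* (14.6 ± 1.23; SD, n = 3). The other genes kept their places, with *AGPAT2* first and *GPAT3*, *GPAM* and *AGPAT1* last. In the siRNA libraries *GPAT3* fell to 1.78 ± 0.379 CPM per kb, where its range overlapped that of *GPAM* with 1.26 ± 0.305, and *LPIN2* fell to 5.23 ± 0.953 (SD, n = 3).

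The profile of *GPAT3* over the 6 libraries was closest to that of *SNHG15* itself, by the root mean square difference in log2 CPM centred on each gene, which was 0.162 against a median of 0.875 for all genes tested. *NRAS* (0.205) and the thiamine transporter gene *SLC19A2* (0.227) came next. For *LPIN2* the closest were ENSG00000268885 (0.0632), *PRDM8* (0.0676) and *PP7080* (0.0841), against a median of 0.503. The 6 libraries fall in 2 groups, so a gene with a difference of like size between them scores as alike.

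Around the 10 genes, 94 further genes of glycerolipid metabolism in 9 lists were read. Of these 93 were found in the table and 68 passed the count filter. At an adjusted p under 0.05 from edgeR 0 were higher and 2 were lower, 2.94% of those tested where 2.23% of all genes were lower. At an unadjusted p under 0.05, 9 were higher and 7 lower of the 68, a share close to the 22.5% of all genes tested. DESeq2 called 0 higher and 2 lower, *ACSL3* and *ACSL1*, where over all genes it called 388 higher and 386 lower. The median log2 fold change of the 68 genes was 0.05, against 0.00 for all genes tested.

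Upstream of the acyltransferases, 1 of the 4 tested genes of fatty acid activation was lower. *ACSL3*, an acyl-CoA synthetase of the endoplasmic reticulum and lipid droplets, had 78.8, 86.3 and 77.4 CPM in the scramble and 45.3, 51.2 and 65.0 CPM in the siRNA libraries (log2 fold change -0.59, SE 0.15, edgeR adjusted p = 0.038). The call was lost without siRNA replicate 2 and without any single scramble library, where adjusted p ran from 0.0877 to 0.158, and it held in the other 2 such fits. With the replicate number as a block, its adjusted p was 0.0547. *ACSL1* had 64.7 ± 4.63 and 44.9 ± 9.26 CPM (SD, n = 3 each), again with no overlap, but its adjusted p was 0.0782 from edgeR. *ACSL4*, which prefers arachidonate, had a log2 fold change of 0.33 and did not pass. None of the 5 tested genes that supply the glycerol backbone passed, with *GNPAT*, the acyltransferase of ether lipid synthesis, at 0.34 and *AGPS* at -0.11 on the log2 scale.

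Of the 12 other acyltransferases tested none passed, and their median log2 fold change was 0.21. The most abundant were *MBOAT7*, which remodels phosphatidylinositol, with 200 ± 36.2 and 247 ± 32.7 CPM, and *LPCAT1*, which acylates lysophosphatidylcholine, with 189.5 ± 21.3 and 179.7 ± 49.8 CPM in the scramble and siRNA libraries (SD, n = 3 each). Larger changes were those of *MBOAT1*, at -0.61 (edgeR adjusted p = 0.0799), and *MBOAT2*, at 0.50 (edgeR adjusted p = 0.0915). *MBOAT1* was called lower without the count filter. Its siRNA libraries lay below the scramble libraries without overlap, and those of *MBOAT2*, *AGPAT4*, *LCLAT1*, *LPGAT1* and *DGAT2* lay above. Among all genes tested, 14.1% lay below and 14.7% above. None of the other phosphatidate phosphatases and lipin activators passed either, of 4 tested. *CTDNEP1*, the phosphatase that activates lipins, had a log2 fold change of -0.17 and *PLPP2* one of -0.15. The largest change was that of *CNEP1R1*, at -0.60 (edgeR adjusted p = 0.219). It had 10.1, 7.76 and 7.26 CPM in the scramble and 3.19, 6.62 and 6.93 CPM in the siRNA libraries, without overlap. *PLPP3* stood at 0.13.

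Downstream, none of the 7 genes of the CDP-diacylglycerol branch passed, with *CRLS1*, the cardiolipin synthase, at -0.11 and *CDIPT*, the phosphatidylinositol synthase, at 0.18 on the log2 scale. Neither did any of the 10 tested genes of phosphatidylcholine, phosphatidylethanolamine and phosphatidylserine synthesis, where *PTDSS1*, a phosphatidylserine synthase, stood at 0.24 and *PEMT* at 0.12. None of the 8 tested diacylglycerol kinases passed, with *DGKI* at -0.24 and *DGKZ* at 0.21, and their median was 0.18. The largest change was that of *DGKG*, at 0.64 (edgeR adjusted p = 0.0703), which was called higher without the count filter. It had 15.9, 14.5 and 23.0 CPM in the scramble and 31.9, 24.7 and 23.8 CPM in the siRNA libraries, without overlap.

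Of 10 tested genes of triglyceride storage and lipolysis, 1 was lower. *ABHD5*, the activator of the triglyceride lipase encoded by *PNPLA2*, had 19.1, 23.3 and 21.2 CPM in the scramble and 14.8, 14.5 and 13.4 CPM in the siRNA libraries (log2 fold change -0.57, SE 0.15, edgeR adjusted p = 0.0492), just inside the threshold. This call held in only 1 of the 6 fits that left out 1 library, the one without siRNA replicate 1, the others giving an adjusted p from 0.0918 to 0.211, and DESeq2 gave 0.0729 and the replicate block 0.0837. *G0S2*, an inhibitor of the same lipase, was the most abundant gene of all lists, with 1670, 1434 and 1242 CPM in the scramble and 818, 1097 and 1243 CPM in the siRNA libraries. Its groups met at their edges, and its adjusted p was 0.112 from edgeR. *PLIN2*, a coat protein of lipid droplets, had a log2 fold change of -0.27 and did not pass. Other genes of the list lay on the higher side without passing. *PNPLA3*, a lipid droplet protein, had 2.46, 1.89 and 2.42 CPM in the scramble and 5.54, 3.88 and 3.76 CPM in the siRNA libraries, without overlap (log2 fold change 0.98, edgeR adjusted p = 0.0648), and was called higher without the count filter. *PLIN3* stood at 0.76 and *FITM2* at 0.34 on the log2 scale, and the median of the list was 0.00.

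None of the 8 tested transcriptional regulators passed. *SREBF2*, a regulator of sterol synthesis, had 93.7 ± 2.06 CPM in the scramble and 83.6 ± 7.30 CPM in the siRNA libraries (SD, n = 3 each). *CEBPB* varied widely, with 349, 496 and 272 CPM against 112, 296 and 251 CPM, and its log2 fold change of -0.76 (standard error 0.29) had an adjusted p of 0.139 from edgeR. *PPARG* and *CEBPA*, regulators of fat cell formation, had 0 counts in all 6 libraries.

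**Figure D4:**
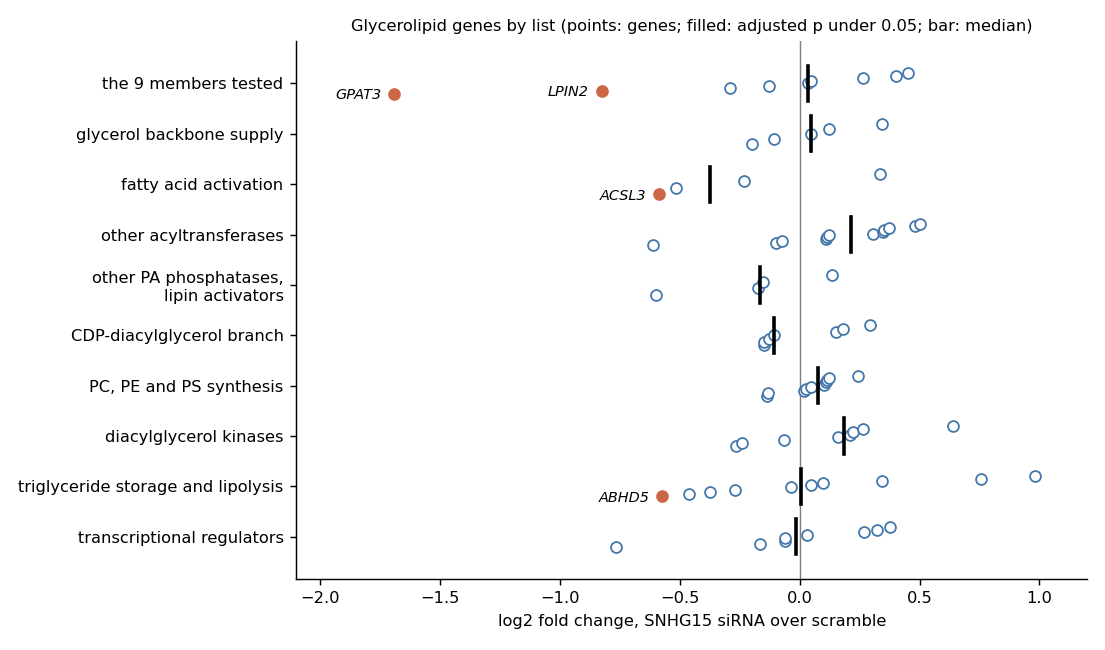
Log2 fold change, *SNHG15* siRNA over scramble (horizontal axis), of the 9 tested genes of the group and of the 68 tested genes of the 9 lists, 1 point for each gene and a black bar for each median. Filled points pass an adjusted p of 0.05 from edgeR, and all 4 of them, *GPAT3*, *LPIN2*, *ACSL3* and *ABHD5*, lie on the lower side.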

How the data were processed

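RNA of 3 scramble siRNA and 3 *SNHG15* siRNA samples of LoVo cells was compared. The authors deposited raw counts of reads per Ensembl gene, without normalization, from stranded mRNA libraries read as 75 bp pairs. The paper names bowtie2 and hg19, and the submitters' processing notes list STAR and featureCounts with hg19, so the aligner is uncertain. The annotation, the strand setting and the treatment of multiply placed reads are not given in the sources used here. The paper calls the samples biological replicates. All 6 columns were matched to samples by name, and 0 were left over.

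Counts were filtered with filterByExpr (minimum count 10, minimum total 15), scaled with TMM and tested with edgeR 4.0.16 in R 4.3.3 (quasi-likelihood test, Benjamini-Hochberg over 12507 genes, call at 0.05). Each SE is the absolute log2 fold change divided by the square root of F. Gene names, positions, exon lengths and 3′ UTRs came from GENCODE release 44 on GRCh37, the build called hg19, and 8012 identifiers had no entry there. Levels per kb used the length of all annotated exons. The genes and lists were chosen with earlier results of these data known. Named genes are the 10 genes, *SNHG15*, up to 4 called genes and the 2 most abundant others of each list, and the 3 nearest profiles of each called gene. Other genes named, among them the remaining paralogs, were added after their values were seen. Protein sequences were not used here. On simulated data of 12507 genes with 200 changed by 1 on the log2 scale, 12372 were tested and 156 of the changed genes recovered, with 10 false calls. Smaller changes, such as those of *LPIN2*, *ACSL3* and *ABHD5*, were not simulated, so recovery at their size is not known. Alternatives were DESeq2 1.42.0, other scaling factors, other filters, a replicate block and leaving out each library.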

Additional observations from a re-analysis of the deposited data

How the results depend on the processing

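The fold changes of *GPAT3* and *LPIN2* kept their direction in all 12 alternatives, *GPAT3* passed in all 12, and *LPIN2* in 10, failing without scramble replicate 2 or 3. With no count filter, edgeR called 2 of the 10 genes higher, *AGPAT1* (log2 fold change 2.96, adjusted p = 0.0267) and *AGPAT2* (0.42, adjusted p = 0.0377). *AGPAT1* entered this fit only because the filter was dropped, with 1, 1 and 0 counts in the scramble libraries, all under the floor of 3. In the same fit the pathway lists had 2 genes higher and 6 lower. Of all 23675 genes with counts, 685 were higher and 627 lower in it. With the filter 392 were higher and 279 lower, of 12507. The lists had 0 genes lower with at least 10 counts in every library (6 at an unadjusted p under 0.05) and 0 with the replicate block (6 unadjusted), and 1 with upper-quartile factors. Over the fits leaving out 1 library, the count over all genes ranged from 73 to 425 higher and from 66 to 387 lower, both lowest without scramble replicate 2. Of the 10 genes 1 to 2 were lower, and of the lists 0 to 2. *LPIN1* ranged from -0.069 to 0.124, below 0 without scramble replicate 1 (-0.069) or siRNA replicate 3 (-0.064), and *AGPAT3* from -0.0142 (without siRNA replicate 1) to 0.0796.

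Shares depend on length. From counts without length, *GPAT3* made up 12.1% of its step in the scramble and 4.40% in the siRNA libraries, and *LPIN2* 29.7% and 18.9%. On that scale *AGPAT2* still led its step, but with 63.0% and 71.0%. With the length of the canonical transcript, added after seeing the data, *LPIN2* made up 27.5% and 17.4%. Same-numbered libraries had correlations of -0.07, 0.16 and -0.04 in their deviations, against -0.17 to 0.14 for libraries of different number. With 3 libraries per group these values cannot show whether the replicate numbers paired the libraries. With the replicate block *GPAT3* and *LPIN2* still passed, with log2 fold changes of -1.69 and -0.83.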
